A study of Mus musculus with 6 samples.

Results

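A set of 10 genes, chosen as classical p53 targets from the 16583 genes of the deposited expression table, was followed in MC38 cells labelled control or SRC-1 knockout. They were taken by gene symbol and comprise Mdm2, Cdkn1a, Gadd45a, Ccng1, Plk2, Bbc3, Pmaip1, Fas, Ei24 and Sesn1. MC38 is a mouse colorectal cancer line. The study's stated subject was SRC-1, a coactivator of transcription whose gene is Ncoa1, and its effect on PD-L1. RNA was sequenced from 3 libraries titled KOCtrl (genotype Ctrl) and 3 libraries titled KOSRC-1. All 6 libraries, controls included, came from cells kept for 24 hours in 100 ng per mL of interferon gamma, so every level below is that of stimulated cells. Groups follow the titles, since the genotype field is KOSRC-2 for knockout 2 and KOSRC-3 for knockout 3 although both titles say KOSRC-1. The labels state neither how the gene was disrupted, nor whether the knockout is 1 clone, nor whether each library had a culture of its own. The p-values therefore measure the spread between these libraries alone, and that spread may be technical.

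The transcription factor p53 is held at a low level by the ubiquitin ligase Mdm2, which is itself a p53 target and so closes a feedback loop. When DNA damage or other stress releases p53 from Mdm2, p53 raises genes that stop the cell cycle (Cdkn1a, Gadd45a), genes that prime mitochondria for apoptosis (Bbc3, Pmaip1), the death receptor gene Fas, and genes that restrain growth signalling and oxidative stress (Sesn1). Several of these genes also answer to other factors. Gadd45a and Bbc3 can be induced by the amino acid and endoplasmic reticulum stress factors ATF4 and CHOP, and Fas by interferon gamma. The Trp53 sequence carried by these cells was not analysed here.

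The libraries held 16329459 to 17207625 expected counts. Ncoa1 stood at 18.2, 18.5 and 18.0 CPM (library-size-adjusted counts, TMM method) in controls 1 to 3 and at 16.7, 10.1 and 16.1 CPM in knockouts 1 to 3. In CPM no knockout library reached the lowest control, yet Ncoa1 was not called (log2 fold change -0.35, SE 0.184, edgeR adjusted p = 0.179). In TPM, the deposited length-scaled level, controls stood at 3.49, 3.42 and 3.48 and knockouts at 3.72, 1.69 and 3.48. There only knockout 2 was below the controls. The word "knockout" below therefore refers to the label. Knockout 2 stood apart, correlating with knockouts 1 and 3 at 0.978 and 0.981 in log2 CPM across genes, while knockouts 1 and 3 correlated at 0.996. Each member is therefore given with and without it. None of the 7 measured markers of colorectal epithelium, the labelled tissue, reached a group mean of 1 CPM (Epcam, Cdh1, Krt8, Krt18, Krt19, Krt20 and Vil1). Of 8 fibroblast or mesenchymal markers 6 reached it, led by Vim and Col3a1. The collagen genes Col1a1 (0.158 CPM in controls, 0.139 in knockouts) and Col1a2 (0.117 and 0.179) did not. Summed over its 8 genes, the mesenchymal list stood at 4068 to 4332 CPM in controls and 5623 to 5687 CPM in knockouts. Its markers moved in both directions. Col3a1 went from 1260.3 to 2518 CPM and Vim from 2465 to 2945 CPM, whereas Dcn went from 388 to 104 CPM, Pdgfrb from 10.2 to 1.19 CPM and Lum from 2.06 to 0.0798 CPM. Immune and endothelial markers stayed below 1 CPM in both groups. The part of these marker differences in the results below was not tested.

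The 10 genes did not move as 1 block. Gadd45a fell 9.003-fold, Plk2 fell 2.96-fold, and Cdkn1a and Mdm2 fell 1.71-fold and 1.68-fold, whereas Sesn1 rose 3.41-fold and Ei24 and Fas rose 1.27-fold and 1.26-fold. Ccng1 and Bbc3 did not pass the test, and Pmaip1 had too few counts to be tested. Thus 7 of the 9 tested members were called at an adjusted p under 0.05 in edgeR's quasi-likelihood test, 4 lower and 3 higher, against 35.7% of all 11656 tested genes called, 18.5% lower and 17.1% higher. The 3 values of one group lay wholly above those of the other in the same 7 members, against 51.4% of tested genes. The median log2 change over the 9 tested members was -0.09, beside 0.02 over all tested genes. With 1 library left out at a time, 5 to 9 members were called. The share of all tested genes called was then 21.9%, 20.4% and 20.4% without controls 1, 2 and 3, and 27.0%, 69.6% and 24.2% without knockouts 1, 2 and 3. Without knockout 2, 4 of the 9 members were called higher and 5 lower, against 34.6% and 35.0% of all tested genes. In these bulk samples, fewer cells expressing a gene and less RNA per cell cannot be told apart.

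**Figure D1:**
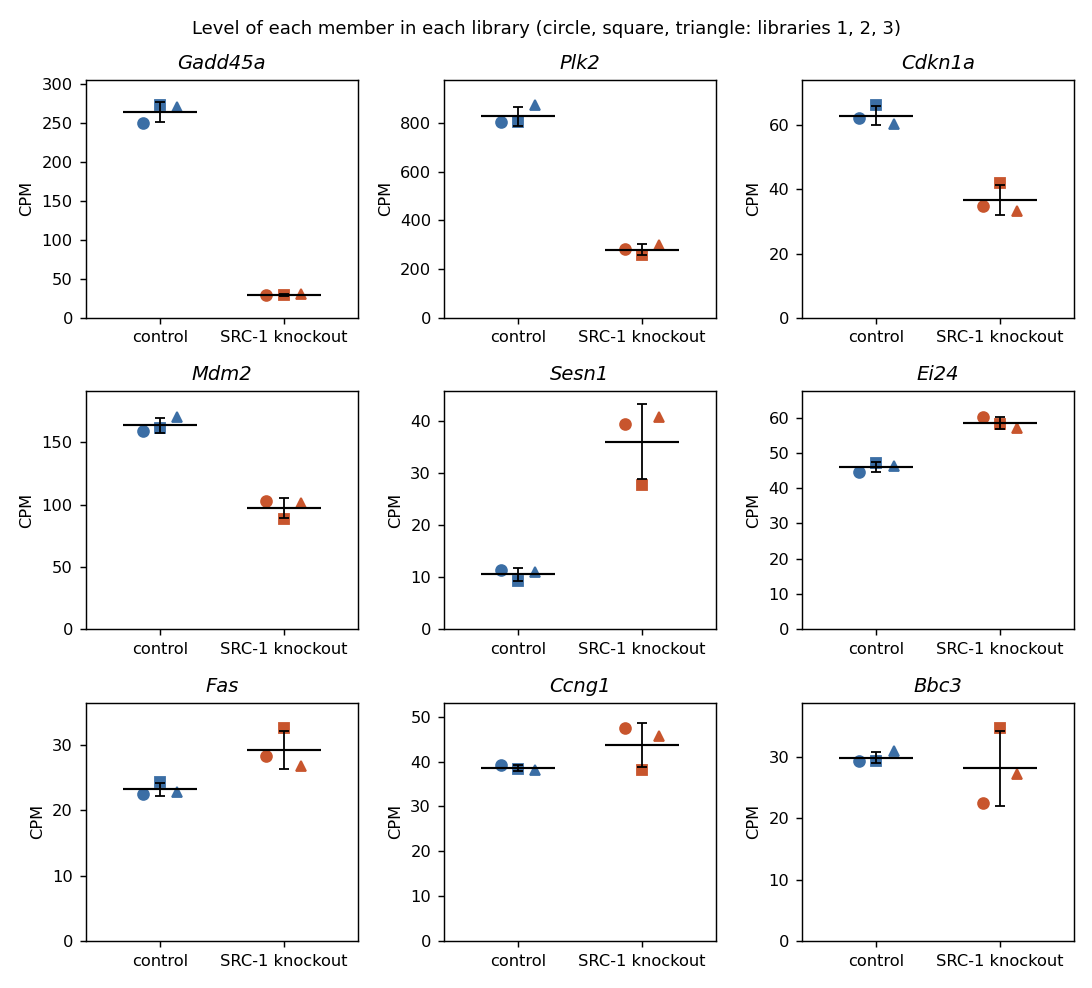
Level in CPM (linear axis from 0) of the 9 tested genes in each library, with circles, squares and triangles for libraries 1, 2 and 3, a bar at the mean and whiskers of 1 SD (n = 3 per group). Gadd45a, Plk2, Cdkn1a and Mdm2 are lower and Sesn1, Ei24 and Fas higher in every knockout library than in any control, while Ccng1 and Bbc3 overlap.

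Stretches upstream of the genes' start sites are shown because these genes are grouped by their control by p53. The p53 decamer, the repeat unit of which a p53 response element holds a pair, was searched on both strands in the 250 bases before each RefSeq start site (GRCm38.p6). It was found for 6 of the 9 members with a sequence entry, Gadd45a, Cdkn1a, Mdm2, Ccng1, Sesn1 and Ei24, in 6 of their 13 windows in all. Of all 32851 such windows 7.13% held it, and of the 9368 tested genes with an entry 7.07% did so in at least 1 window. Capitals mark the decamer, or in Plk2 the cyclic AMP response element TGACGTCA, which 1.55% of windows and 3.10% of tested genes held.
Gadd45a, minus strand of chr6:67037408-67037657: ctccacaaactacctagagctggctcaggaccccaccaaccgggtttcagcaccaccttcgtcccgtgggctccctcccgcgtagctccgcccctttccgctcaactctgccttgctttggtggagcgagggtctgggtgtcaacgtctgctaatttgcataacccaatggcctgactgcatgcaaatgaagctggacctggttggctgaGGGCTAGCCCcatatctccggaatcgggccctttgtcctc
Cdkn1a, plus strand of chr17:29090881-29090962: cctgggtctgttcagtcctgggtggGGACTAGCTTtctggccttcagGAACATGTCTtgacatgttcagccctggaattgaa
Mdm2, minus strand of chr10:117710910-117710969: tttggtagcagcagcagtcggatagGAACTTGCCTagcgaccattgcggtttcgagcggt
Sesn1, plus strand of chr10:41887241-41887300: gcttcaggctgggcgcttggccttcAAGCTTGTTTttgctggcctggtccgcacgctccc
Ei24, minus strand of chr9:36797335-36797369: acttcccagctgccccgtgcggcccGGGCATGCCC
Ccng1, minus strand of chr11:40755437-40755496: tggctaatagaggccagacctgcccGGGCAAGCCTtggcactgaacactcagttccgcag
Plk2, plus strand of chr13:110394957-110395014: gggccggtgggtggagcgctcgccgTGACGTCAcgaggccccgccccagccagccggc
The decamer began 40 bases before the start of Gadd45a, 73 and 51 bases before the upstream start of Cdkn1a, 186 before that of Mdm2, 173 before the internal start of Sesn1, 10 before that of Ei24 and 185 before that of Ccng1. It thus stood upstream of genes that fell, genes that rose and a gene that was not called. Of the other letters searched, CCAAT occurred upstream of 5 members (Gadd45a, Mdm2, Ccng1, Bbc3 and Sesn1) of the 9, against 42.1% of tested genes, and the AP-1 motif TGANTCA upstream of Fas alone, against 5.42% of tested genes. The interferon gamma activated sequence TTCNNNGAA also occurred upstream of Fas alone, against 7.21% of tested genes. The ATF4 and CHOP composite letters TGATGNAA occurred upstream of 0 of the 9 members, against 2.41% of tested genes. These are matches of letters within short windows, and say nothing of binding or of sites elsewhere in the genes.

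Mdm2 encodes the ubiquitin ligase that marks p53 for degradation and is the feedback arm of the pathway (gene 17246, chromosome 10, 117688875 to 117710758). It stood at 159, 162 and 170.5 CPM in controls and, in order, at 103, 88.3 and 101 CPM in knockouts. All 3 knockouts were lower, knockout 2 the lowest, and the groups did not overlap. The fall was 0.75 on the log2 scale (log2 fold change -0.75, SE 0.0844, edgeR adjusted p = 0.000745), and the value was -0.68 without knockout 2. Its partner and paralog Mdm4, which blocks p53 activity without a strong ligase function of its own, fell from 89.4 ± 4.08 to 59.0 ± 7.47 CPM (log2 fold change -0.60, adjusted p = 0.00526), a call that limma on log2(TPM + 1) did not make (-0.51, adjusted p = 0.0831). Per length, Mdm2 made up 81.7% ± 0.210 of the summed TPM (the deposited length-scaled transcript level) of the pair in controls and 80.1% ± 0.652 in knockouts (SD, n = 3 each), a small difference with no overlap between groups.

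Trp53, the gene of p53 itself, stood at 200.02, 227 and 209.6 CPM in controls and at 245, 298 and 241 CPM in knockouts. Every knockout was above every control, yet Trp53 was not called (log2 fold change 0.30, SE 0.103, edgeR adjusted p = 0.0588). The test of log2(TPM + 1) with limma did call it higher (0.35, adjusted p = 0.00596). The ratio of Mdm2 to Trp53 in TPM was 0.427, 0.385 and 0.438 in controls and 0.225, 0.158 and 0.225 in knockouts. The ratio was lower in each knockout (two-sided exact permutation p = 0.1, the smallest that 3 against 3 allows). Cdkn2a, whose Arf product inhibits Mdm2, was low, with 4.19 ± 0.425 CPM among controls against 3.12 ± 0.135 CPM among knockouts (log2 fold change -0.42, edgeR adjusted p = 0.0508).

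Gadd45a encodes a small stress protein that binds the mitotic kinase Cdk1 and the MAP kinase kinase kinase Map3k4, and that slows entry into mitosis. The gene (13197) lies on chromosome 6 from 67035096 to 67037407. It stood at 249, 272 and 270.04 CPM in controls and at 28.8, 28.7 and 30.4 CPM in knockouts. The knockouts were nearly equal, at 29.3 ± 0.968 CPM against 264 ± 12.9 CPM in controls. The log2 fold change was -3.17 (SE 0.0792, 95% interval -3.36 to -2.98, edgeR adjusted p = 2.63e-06) and -3.16 without knockout 2. By p-value it ranked 3 among the 11656 tested genes, while by size of change it ranked 82 among the 2158 genes called lower. In TPM, Gadd45a was 348, 369 and 380 in controls and 45.7, 35.1 and 47.0 in knockouts, which moved it from place 381 to place 3169 among all genes of the table ordered by mean TPM.

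The loss was not shared by its close relatives. Gadd45b averaged 19.7 ± 1.97 CPM among controls against 17.6 ± 2.81 CPM among knockouts (log2 fold change -0.16, edgeR adjusted p = 0.396). Gadd45g was at 12.1 ± 1.22 and 10.1 ± 2.97 CPM (log2 fold change -0.27, adjusted p = 0.352). As a share of the family's summed TPM, Gadd45a went from 88.4% to 89.4% in controls to 44.6% to 54.4% in knockouts (exact permutation p = 0.1, the smallest possible here), while the sum fell from 411 ± 19.8 to 83.4 ± 4.46 TPM. Of the proteins that Gadd45a binds, Map3k4 rose from 42.7 ± 0.557 to 59.8 ± 2.43 CPM (log2 fold change 0.49, edgeR adjusted p = 0.00246) and Cdk1 rose from 142 ± 7.02 to 182 ± 19.1 CPM (0.36, adjusted p = 0.0228). Its other measured partners were not called. The log2 fold change was 0.09 for Ccnb1, the cyclin of Cdk1, -0.04 for the replication clamp gene Pcna, and -0.43 for Gadd45gip1, whose adjusted p was 0.158.

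**Figure D2:**
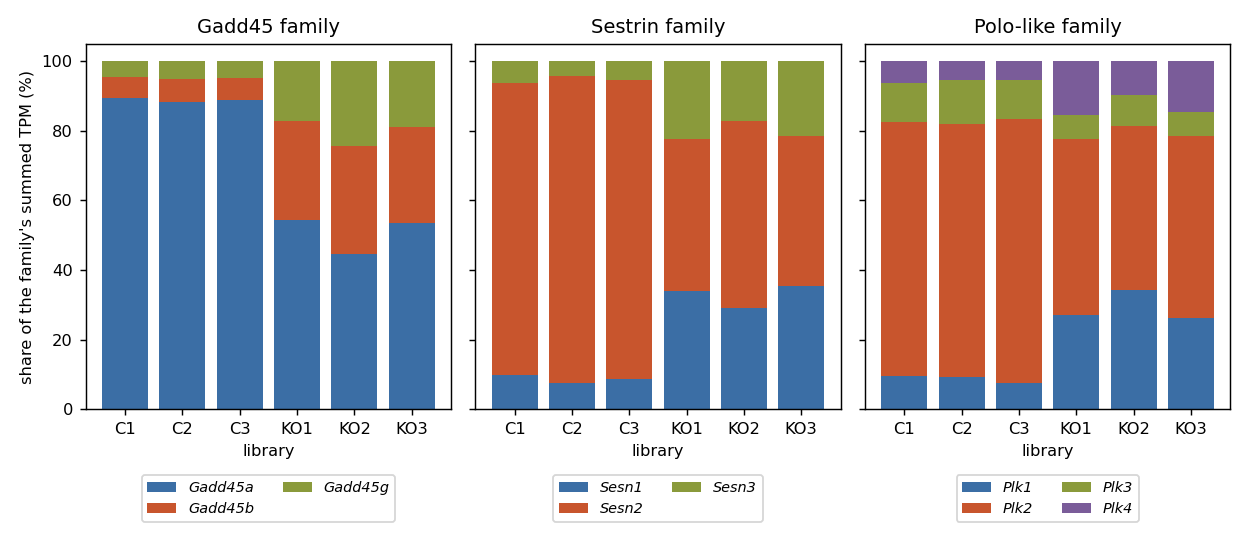
Share of each gene in the summed TPM of its family (percent, bars from 0 to 100) in controls C1 to C3 and knockouts KO1 to KO3. Gadd45a takes 88.4% to 89.4% of its family in controls and 44.6% to 54.4% in knockouts, Sesn2 takes 84.1% to 88.4% and 43.1% to 53.7%, and Plk2 takes 72.8% to 75.7% and 46.9% to 52.6%.

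Cdkn1a encodes p21, the inhibitor of cyclin-dependent kinases through which p53 arrests cells before DNA replication (gene 12575, chromosome 17, 29090979 to 29100722). Its level was 62.3, 66.2 and 60.5 CPM in controls and 35.0, 42.1 and 33.3 CPM in knockouts. In CPM knockout 2 was the highest of its group and still below every control. In TPM the knockouts stood at 32.39, 30.01 and 30.08, knockout 2 the lowest, against 50.84, 52.39 and 49.75 in controls. The log2 fold change was -0.78 (SE 0.107, edgeR adjusted p = 0.00176), and -0.88 without knockout 2. The other inhibitors of its family behaved differently. Cdkn1b (p27) averaged 43.7 ± 1.29 CPM among controls against 48.5 ± 9.91 CPM among knockouts (log2 fold change 0.15, adjusted p = 0.469), and Cdkn1c (p57), the least abundant, rose from 2.77 ± 0.304 to 8.69 ± 0.378 CPM (1.65, adjusted p = 0.000171). Cdkn1a thus made up 63.4% ± 1.27 of the summed TPM of the 3 inhibitors in controls and 44.6% ± 7.21 in knockouts. Of 11 genes for the Cip and Kip relatives of p21 and the cyclins and kinases that they bind, 4 rose, 1 fell and 6 were not called, beside 17.1% of all tested genes called higher and 18.5% lower. Without knockout 2 the counts were 7 higher and 3 lower, beside 34.6% and 35.0% of all genes. Among them Cdk2 rose from 34.4 ± 3.50 to 58.1 ± 8.25 CPM (edgeR adjusted p = 0.00462) and its partner Ccna2 rose from 140.2 ± 4.0 to 191 ± 10.3 CPM (adjusted p = 0.00329). Ccnd3 was the fourth riser, and the cyclin D2 gene Ccnd2 fell from 172 ± 10.8 to 95.6 ± 9.18 CPM (adjusted p = 0.000809).

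Plk2, a Polo-like kinase of centriole duplication and of synapses that is induced by p53 and by serum, was the most abundant member (gene 20620, chromosome 13, 110395044 to 110400844). It stood at 803, 806 and 873 CPM in controls and 281, 257 and 301 CPM in knockouts. In CPM the knockouts lay at about the same level and far below the controls. In TPM they stood at 169, 119 and 177, knockout 2 the lowest, against 426, 415 and 467 in controls. The log2 fold change was -1.56 (SE 0.0892, edgeR adjusted p = 5.61e-05), and -1.51 without knockout 2. Plk3, another stress-responsive kinase of the family, also fell, from 110 ± 8.22 to 35.1 ± 5.17 CPM (log2 fold change -1.64, adjusted p = 0.000158). Plk1, the kinase that drives mitosis, rose from 75.1 ± 7.19 to 125 ± 17.1 CPM (0.73, adjusted p = 0.00378). Plk4, which starts centriole assembly, was not called (0.22, adjusted p = 0.374).

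Ccng1, the cyclin G gene whose product recruits phosphatase PP2A to Mdm2, was not called (gene 12450, chromosome 11, 40748552 to 40755309). Controls stood at 39.3, 38.4 and 38.2 CPM and knockouts at 47.4, 38.2 and 45.8 CPM. In CPM knockouts 1 and 3 were above the controls and knockout 2 lay at the level of the lowest control. In TPM controls stood at 16.43, 15.55 and 16.09 and knockouts at 22.47, 13.94 and 21.17, knockout 2 below every control. The log2 fold change was 0.18 (SE 0.101, 95% interval -0.05 to 0.42, edgeR adjusted p = 0.198). Leaving out knockout 2 gave 0.27 (adjusted p = 0.00029), in a fit that called 69.6% of all tested genes, and removing length-dependent and GC-dependent differences between libraries, where 54.5% of genes were called, gave 0.22 (adjusted p = 0.00939). Its paralog Ccng2 was at 7.78 ± 0.587 and 11.5 ± 2.95 CPM (0.57, adjusted p = 0.0616), and the related cyclin gene Ccni was at 67.1 ± 4.85 and 74.5 ± 9.23 CPM (0.15, adjusted p = 0.326).

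Of the apoptosis genes, Bbc3 encodes Puma, a BH3-only protein that neutralises the anti-apoptotic BCL2 proteins (gene 170770, chromosome 7, 16308398 to 16318334). Its level was 29.4, 29.3 and 31.0 CPM in controls and 22.6, 34.7 and 27.2 CPM in knockouts. In CPM knockouts 1 and 3 were below every control and knockout 2 above every control. In TPM controls stood at 25.46, 24.75 and 27.14 and knockouts at 21.96, 25.97 and 25.74. There only knockout 1 was below the controls, and knockouts 2 and 3 lay within their range. The change was not called (log2 fold change -0.09, SE 0.154, 95% interval -0.45 to 0.27, edgeR adjusted p = 0.691). Its sign rests on single libraries. Leaving out knockout 2 gave -0.26 (adjusted p = 0.00466), and leaving out knockout 1 gave 0.05 (adjusted p = 0.796). Pmaip1, which encodes the BH3-only protein Noxa, was close to absent from the counts (gene 58801, chromosome 18, 66458604 to 66465558). It had 0, 2 and 1 counts in controls and 1, 0 and 0 in knockouts, too few for a fold change.

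Fas encodes the death receptor that assembles caspase-8 at the membrane (gene 14102, chromosome 19, 34290647 to 34327775). Its level was 22.4, 24.3 and 22.9 CPM in controls and 28.4, 32.5 and 26.8 CPM in knockouts. Each knockout was above each control, and in CPM knockout 2 was the highest. In TPM the knockouts stood at 35.1, 30.79 and 33.86, knockout 2 the lowest, against 25.26, 25.56 and 25.3 in controls. The rise was small (log2 fold change 0.33, SE 0.10, edgeR adjusted p = 0.0379), and its call was lost without control 1, 2 or 3 (adjusted p 0.139, 0.0918 and 0.134) and without knockout 1 (0.0705). Without knockout 2 it was 0.25 (adjusted p = 0.00458). Of the Fas pathway genes, Cflar, the decoy that blocks caspase-8, fell from 60.7 ± 2.35 to 37.3 ± 4.05 CPM (log2 fold change -0.70, adjusted p = 0.00186). Fadd, Casp8 and Ripk1 were not called. The ligand gene Fasl averaged 0.0587 CPM in controls and 0.0395 CPM in knockouts and was not tested.

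Ei24, an endoplasmic reticulum membrane protein with roles in autophagy, rose in every knockout (gene 13663, chromosome 9, 36779153 to 36797334). Controls stood at 44.5, 47.1 and 46.4 CPM and knockouts at 60.2, 58.1 and 57.0 CPM. In CPM both groups were tight and knockout 2 lay within its own. In TPM the knockouts stood at 48.1, 35.8 and 44.4, knockout 2 the lowest, against 31.3, 32.1 and 32.9 in controls. The log2 fold change was 0.35 (SE 0.0731, edgeR adjusted p = 0.00971) and 0.35 without knockout 2. The call was lost without control 1 (adjusted p = 0.0595) or control 3 (0.0538). Limma on log2(TPM + 1) called Ei24 at an adjusted p of 0.047. Among 8 measured genes of the BCL2 family, 2 rose, 2 fell and 4 were not called, beside 35.7% of all tested genes called. Without knockout 2, 2 were higher and 4 lower, beside 34.6% and 35.0% of all genes. Bcl2l11, the BH3-only gene of Bim, rose from 8.23 ± 0.142 to 16.2 ± 2.68 CPM (log2 fold change 0.98, edgeR adjusted p = 0.00202) and the effector gene Bak1 rose (0.40, adjusted p = 0.0476). Bid fell (-0.38, adjusted p = 0.00797), as did the anti-apoptotic Bcl2 (-0.42, adjusted p = 0.0281). Neither fall was called by limma on log2(TPM + 1), with adjusted p of 0.0761 for Bid and 0.173 for Bcl2.

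Sesn1, a sestrin that restrains the growth kinase complex mTORC1 and limits oxidative stress, was the member that rose most (gene 140742, chromosome 10, 41810574 to 41908436). It stood at 11.5, 9.23 and 11.0 CPM in controls and at 39.5, 27.7 and 40.8 CPM in knockouts. Knockout 2 was the lowest of its group and still above every control. This was a log2 fold change of 1.77 (SE 0.173, 95% interval 1.36 to 2.18, edgeR adjusted p = 0.000488), and 1.93 without knockout 2. The other sestrins split. Sesn2, which answers to ATF4 as well as to p53, fell from 101 ± 7.15 to 45.8 ± 1.83 CPM (log2 fold change -1.14, adjusted p = 0.000135), and Sesn3, a target of FOXO factors, rose from 4.83 ± 0.740 to 15.9 ± 3.37 CPM (1.72, adjusted p = 0.000879). The family's summed TPM was 65.3 ± 1.92 in controls and 57.9 ± 12.2 in knockouts (exact permutation p = 0.4). Within it, Sesn2 held 86.2% ± 2.13 in controls and 46.8% ± 6.0 in knockouts, and Sesn1 8.61% ± 1.11 and 32.9% ± 3.27.

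**Figure D3:**
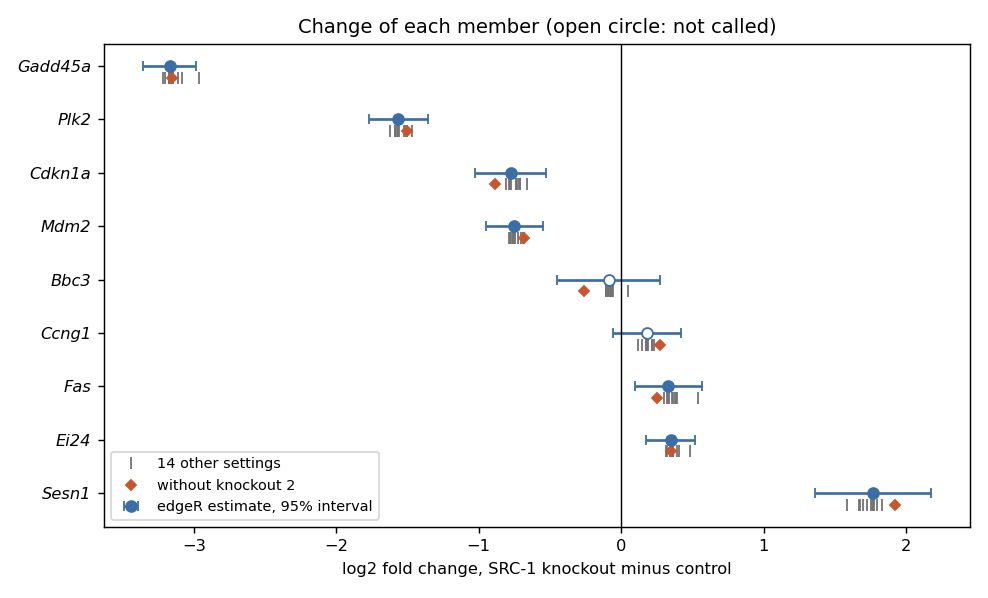
Log2 fold change, knockout minus control, of the 9 tested genes with its 95% interval from edgeR (filled circles called, open circles not called), the value without knockout 2 (diamonds) and the values under 14 other settings (ticks). Gadd45a at -3.17 and Sesn1 at 1.77 lie farthest from 0, and Bbc3 is the gene whose settings fall on both sides of 0.

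By level per length, the order of the members changed between groups. In controls the order in mean TPM was Plk2 (436 ± 27.7), Gadd45a (365 ± 16.1), Mdm2 (77.2 ± 3.86), Cdkn1a (51.0 ± 1.33), Ei24 (32.1 ± 0.805), Bbc3, Fas, Ccng1, Sesn1 and Pmaip1. Only the neighbours Bbc3 (25.8 ± 1.23) and Fas (25.4 ± 0.163) had overlapping ranges there. In knockouts the order was Plk2 (155 ± 31.2), Mdm2 (48.2 ± 10.3), Ei24 (42.8 ± 6.30), Gadd45a (42.6 ± 6.53), Fas (33.2 ± 2.22), Cdkn1a, Bbc3, Sesn1, Ccng1 and Pmaip1. There the ranges of neighbours overlapped from Mdm2 down to Cdkn1a and again from Bbc3 down to Ccng1. The 10 genes summed to 1005, 1014 and 1085 TPM in controls and 453, 340.1 and 455 TPM in knockouts (exact permutation p = 0.1). Gadd45a and Plk2 made up most of that difference, since without both the sum was 233 ± 4.67 TPM in controls and 218 ± 28.3 in knockouts. The knockouts then stood at 238, 186 and 231 TPM, knockout 2 the lowest. Both genes were left out for having the largest falls in these same data, so no test is given for the rest. That rest joins members that fell with members that rose. Knockout 2 departed from knockouts 1 and 3 by log2 CPM differences between -0.53 (Sesn1) and 0.48 (Bbc3), and by only -0.04 in Gadd45a and -0.01 in Ei24.

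Other genes of the pathway were counted from lists by role. Of 20 tested further p53 targets, 1 rose (the autophagy gene Dram1), 8 fell and 11 were not called. Of all tested genes, 17.1% were called higher and 18.5% lower. The median log2 change of these targets was -0.27 beside 0.02 over all genes. Without knockout 2, where 69.6% of all genes were called, 4 rose and 11 fell. With limma on log2(TPM + 1), which called 27.7% of all genes, 13.1% higher and 14.6% lower, 2 of 18 tested were higher and 4 lower. The anti-proliferative gene Btg2 fell from 26.1 ± 1.49 to 9.72 ± 0.933 CPM (edgeR adjusted p = 0.00014). Tigar, which diverts glucose from glycolysis, fell from 29.5 ± 0.737 to 17.3 ± 1.13 CPM (adjusted p = 0.000772). The stress cytokine gene Gdf15 was low and fell from 0.905 ± 0.215 to 0.120 ± 0.0610 CPM (adjusted p = 0.00245). Several common targets were not called, among them Bax (log2 fold change -0.27, adjusted p = 0.328) and Zmat3 (-0.02, adjusted p = 0.891), both named after their values were seen.

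Of 18 tested core regulators of p53, 4 fell and 14 were not called, beside 18.5% of all genes called lower, with a median log2 change of -0.14. With length-dependent and GC-dependent differences removed, 4 were higher and 5 lower, beside 30.4% and 24.1% of all genes. Without knockout 2, 6 were higher and 9 lower, beside 34.6% and 35.0%. With limma on log2(TPM + 1), 1 was higher and 2 lower, beside 13.1% and 14.6%. The 4 that fell in edgeR were Mdm4, Rchy1, Atr and Usp10. Rchy1 (Pirh2), another ubiquitin ligase of p53, fell from 39.0 ± 0.913 to 25.7 ± 1.06 CPM (edgeR adjusted p = 0.00135). The damage kinase gene Atr fell from 41.9 ± 0.302 to 28.9 ± 2.75 CPM (adjusted p = 0.00446). The deubiquitinase gene Usp10 had a log2 fold change of -0.29 (edgeR adjusted p = 0.022, and 0.165 with limma). Of 21 components and targets of the DREAM complex, through which p21 represses cell cycle genes, 5 rose, 1 fell (E2f4) and 15 were not called, with a median of 0.11, beside 17.1% of all genes called higher and 18.5% lower. The counts were 11 higher and 3 lower without knockout 2, beside 34.6% and 35.0% of all genes. With the length and GC differences removed they were 9 and 2, beside 30.4% and 24.1%. With limma they were 3 and 1, beside 13.1% and 14.6%. They were 2 and 0 without control 2 or 3, and 3 and 0 without control 1, knockout 1 or knockout 3. Those fits called 20.4% to 27.0% of all genes in either direction. Top2a rose from 490 ± 7.12 to 754 ± 27.3 CPM (adjusted p = 0.000805), and Plk1, Kif23, Cdc20 and Cenpf were the other risers (log2 fold changes 0.36 to 0.73). Limma did not call Kif23 (adjusted p = 0.107) or Cenpf.

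The factors known to raise or restrain Gadd45a by other routes were counted too. Of 7 tested, 4 fell and 3 were not called, beside 18.5% of all tested genes called lower and 17.1% higher. Without knockout 2 the count was 3 higher and 4 lower, beside 34.6% and 35.0% of all genes. It was 2 lower without control 1, 2 or 3 or knockout 3, where 20.4% to 24.2% of all genes were called. Egr1 fell from 75.4 ± 5.33 to 22.6 ± 2.51 CPM (log2 fold change -1.74, edgeR adjusted p = 7.86e-05), and Myc, a repressor of Gadd45a, fell from 628 ± 37.3 to 233 ± 3.32 CPM (-1.43, adjusted p = 4.42e-05). Atf4 and Foxo1 fell less (-0.37 and -0.31, adjusted p = 0.0379 and 0.0402), and limma did not call Foxo1 (adjusted p = 0.347). Foxo3 averaged 101 ± 3.29 CPM in controls and 138 ± 28.8 CPM in knockouts. Each knockout was above each control, but Foxo3 was not called (0.45, edgeR adjusted p = 0.0529), nor were Brca1 (0.23) and Zfp148 (0.30). Of 10 factors and targets of ATF4 and CHOP, 1 rose (Ddit4), 8 fell and 1 (Atf5) was not called, with a median of -1.195. Beside this, 17.1% of all genes were called higher and 18.5% lower. The counts were the same without knockout 2, where 34.6% and 35.0% of all genes were called. With any other library left out, 7 were lower and 0 or 1 higher, while 20.4% to 27.0% of all genes were called. Atf3 fell from 42.9 ± 4.19 to 7.78 ± 0.399 CPM (adjusted p = 2.43e-05), and Chac1 and Trib3 fell as well (log2 fold changes -2.50 and -2.03, adjusted p = 4.05e-05 and 0.00014). Sesn2 belongs both to this list and to the p53 targets, and Atf4 both to this list and to the regulators of Gadd45a.

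**Figure D4:**
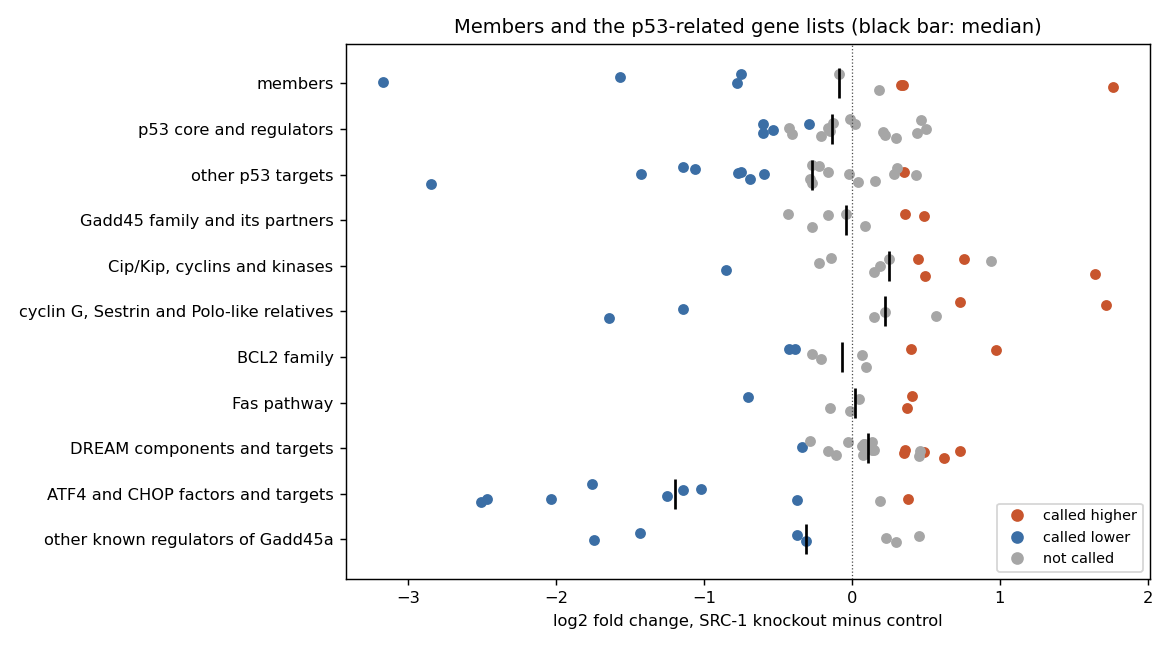
Log2 fold change, knockout minus control, of every tested gene in the set of 10 and in each related list (points; colour gives the edgeR call) with the list's median as a black bar. The ATF4 and CHOP list has the lowest median, -1.195, and the further p53 targets have a median of -0.27 with 8 called lower and 1 higher.

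The 5 genes whose pattern over the 6 libraries was nearest to that of Gadd45a, by Euclidean distance in log2 CPM from the control mean, were Car6, Sh2d6, Ppp1r15a, Pdgfrb and Atp13a4 (distances 0.345 to 0.490). Ppp1r15a, also called Gadd34, encodes the phosphatase subunit that reverses the phosphorylation of eIF2 alpha, and it fell from 636 ± 53.7 to 81.6 ± 11.9 CPM. Car6, a secreted carbonic anhydrase gene, fell from 104 ± 6.28 to 11.5 ± 1.82 CPM. This likeness is a description of genes picked for it, with no test.

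The genomic surroundings of the members were also examined. Within 2 Mb on either side of Gadd45a, 7 tested genes had a median log2 change of -0.35 (from -1.50 to 0.32; 2 called higher and 3 lower), and the median over chromosome 6 was -0.16. Around Plk2 all 5 tested neighbours had values below 0, from -2.38 to -0.14, and 3 were called lower, while the median of chromosome 13 was 0.01. Around Sesn1 26 tested genes had a median of 0.15, with 4 called higher and 1 lower, beside a median of 0.11 over chromosome 10, where Mdm2 also lies. The changes of Gadd45a and Sesn1 were larger than those of all their tested neighbours within 2 Mb, and that of Plk2 was not. The part of such regional shifts in the members' values was not tested. An annotated transcript on the opposite strand overlaps Gadd45a, Cdkn1a and Ei24, and since no source says that the libraries keep strand, reads of both strands cannot be told apart at these genes.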

How the data were processed

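Per the file headers, the deposited table gives for each library an expected count, an FPKM and a TPM per gene; the deposited counts were used under the unit expected count, 88.9% of them being whole numbers. HISAT2, StringTie, SAMtools and the build GRCm38.p6 are named, with no role or version, in the submitters' processing notes. The deposited FPKM and group averages were not used. Counts were rounded, filtered with filterByExpr (minimum count 10, total 15), scaled by TMM and tested with edgeR 4.0.16 (R 4.3.3; robust quasi-likelihood, two-sided, Benjamini-Hochberg over all 11656 genes). Groups follow the sample titles, with n = 3 each. Alternatives used DESeq2 1.42.0 and limma 3.58.1 on log2(TPM + 1) and log2(TPM + 0.1), keeping genes with at least 1 TPM in 3 libraries. Transcript length and GC content (GENCODE M21, 98% of tested genes) were fitted by splines and removed as offsets in another. The tests were checked on simulated counts. Gene positions are from RefSeq (16531 of 16583 identifiers matched), and start regions from RefSeq (9 of 10 members).

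The members, lists and tests were chosen with earlier results of these data known. Named beside the members are Ncoa1, Trp53, Mdm4, Cdkn2a, all Gadd45, cyclin G, sestrin and Polo-like relatives and partners, up to 4 called genes of each other list by smallest adjusted p, and the 5 genes nearest to Gadd45a with at least 5 CPM. Genes that make up a small count were named after their values were seen. Some results for genes of the Fas pathway are not reported here.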

Additional observations from a re-analysis of the deposited data

How the results depend on the processing

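Gadd45a, Plk2, Cdkn1a, Mdm2 and Sesn1 kept their direction and their call in each of the 15 alternatives, with log2 changes of -3.22 to -2.97, -1.62 to -1.47, -0.88 to -0.66, -0.79 to -0.68 and 1.58 to 1.93. Of the 135 alternative values of the 9 tested members, 124 kept direction and call. Fas lost its call in 5 alternatives, among them upper-quartile scaling (0.33, adjusted p = 0.0514), and Ei24 in 2. Bbc3 ranged from -0.2631 to 0.05051, above 0 without knockout 1. With length and GC trends removed, 3474 genes were called higher. Leaving out 1 library at a time gave 2406 to 8208 genes called, 1036 to 4075 higher and 1358 to 4133 lower, and 5 to 9 members called, 1 to 4 of them higher and 4 to 5 lower. The lowest counts of genes came without control 1 (2576), 2 (2406) or 3 (2409) and the highest without knockout 2.

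Samples with the same replicate number did not clearly deviate together (correlations 0.161, 0.261 and 0.0401 across genes), and 1 of 3 controls matched its own number best. With the replicate number as a block, 4337 genes were called and 7 members, and no member's call changed. At 16329459 to 17207625 counts a library, Pmaip1 could not be tested.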
